A study of Mus musculus and Canis lupus familiaris with 12 samples.

Results

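Genes that carry only a number after the zinc finger stem, written Zfp in the mouse table and ZNF in the dog table, were followed in osteosarcoma cells given omacetaxine (OMX). A row was included when its symbol was ZFP or ZNF plus digits and at most 1 letter, other than ZFP36, and when at least 3 of the 6 columns of its line held 20 counts or more. This left 195 of 78317 rows in the mouse line DLM8 and 143 of 30424 rows in the dog line Gracie. Of 423 matching mouse symbols 228 stayed under the count minimum, 57 of them with 0 counts in every library, and of 266 matching dog rows 123 stayed under it, 26 of them with 0 counts. Members were thus selected on their counts in both groups, so a row that was low in untreated cells could enter through its OMX columns alone. The counts and medians over the list below are therefore descriptions of it.

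OMX, also known as homoharringtonine, is a plant alkaloid that blocks peptide elongation on the ribosome, and the series was set up around its effect on c-Myc and on osteosarcoma cells. The groups were DLM8 cells given 50 nM OMX for 6 h, DLM8 cells labelled untreated, Gracie cells given 50 nM OMX for 6 h and Gracie cells labelled untreated, with 3 libraries in each and 12 in all. Both lines carry the genotype label WT, each is an osteosarcoma line grown in culture, and the treatment protocol names a DMSO control for the wells that the sample labels call untreated. The labels do not say that the libraries of a group came from separate cultures, so p-values speak of the spread among the libraries alone, which may be technical, and an exact permutation test of 3 against 3 libraries could not go below p = 0.1.

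Proteins of this class hold their DNA or RNA target with a row of small loops, each folded around a zinc ion by a pair of cysteines and a pair of histidines. Many of them also carry a KRAB domain, through which they bring in TRIM28 and the histone methyltransferase SETDB1 and keep transposable elements and imprinted genes silent. Others carry no KRAB domain and act as activators, as parts of chromatin complexes, in ribosome assembly or in the sensing of stalled ribosomes. Most KRAB members lie in gene clusters with close copies beside them and are expressed at a low level in most cells.

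Library totals ran between 9311702 and 10099127 counts in DLM8 OMX and between 9099313 and 11392715 in DLM8 untreated libraries. In Gracie they ran between 2748600 and 3381831 counts in OMX and between 2385102 and 2525010 in untreated libraries. Between 67.7% and 73.7% of the nonzero counts of a library were even numbers, the pattern that separate counting of paired mates would give, so 20 counts may stand for fewer than 20 fragments. With all counts halved the members had 57 rises and 10 falls in DLM8 and 58 rises and 3 falls in Gracie. Osteoblast lineage markers were summed as a check of the label. In DLM8 their 9 rows held 10256, 7882 and 6684 counts in OMX libraries, against 24837, 19054 and 15381 in untreated libraries, and 4 of the 8 tested were called lower. In Gracie their 8 rows held 236, 332 and 319 counts in OMX libraries, against 327, 177 and 177 in untreated libraries, with IBSP and SPP1 at 0 to 2 counts and ALPL at 0 to 5 in every library. The 5 leukocyte markers summed to 2128, 1513 and 1200 counts in DLM8 OMX libraries, against 1353, 1079 and 1019 in untreated libraries. In Gracie they summed to 9, 16 and 34 counts in OMX libraries, against 13, 12 and 13 in untreated libraries. Of these 5 only Csf1r in DLM8 was above 20 counts in any library, and PTPRC held 0 to 2 counts in both lines. The 4 mouse and 3 dog epithelial markers summed to at most 13 counts a library. The 3 endothelial markers summed to 50, 78 and 109 counts in DLM8 OMX libraries, against 35, 14 and 12 in untreated libraries, and to 203, 128 and 106 in Gracie OMX libraries, against 206, 90 and 42 in untreated libraries. The 2 muscle markers summed to 28, 26 and 41 counts in DLM8 OMX libraries, against 53, 41 and 47 in untreated libraries, and to 0 in Gracie. Among the endothelial markers Cdh5 was called higher in DLM8, and among the osteoblast markers SP7 was called higher in Gracie. The part of these markers in the zinc finger values was not tested.

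The strand that the counts stand for is uncertain. The strand setting of the counting is not given in the sources used here. The DLM8 row of mt-Nd6, which lies on the light strand of the mitochondrial genome, had 13424 to 16316 counts in OMX and 15794 to 24734 in untreated libraries, while the row of mt-Co1, a gene of the heavy strand, held 1153 to 1879 counts in OMX and 1740 to 2812 in untreated libraries. Had reads been assigned to the strand opposite each gene, every zinc finger row, with or without an annotated gene across from it, would hold reads of the opposite strand and not those of the named message. The marker rows above carry the same doubt. Which strand was counted was not tested. The values below are those of the rows that carry the names. A rise or fall given for a name is that of its row, which may not hold the named message. The mitochondrial rows of the dog table held 0 counts, so the same reading could not be made in Gracie.

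Promoter windows are shown for 7 mouse members, 5 that rose and 2 that fell, so that their start regions can be read side by side. Each window holds 250 bases before and 50 bases after a RefSeq gene start on build GRCm38.p6, read along the strand of the gene, and capitals mark letters that matched a searched motif. Zfp974 (chr7:27929409-27929708, minus strand), Zfp263 (chr16:3743849-3744148, plus strand) and Zfp408 (chr2:91649742-91650041, minus strand) rose with OMX and hold the ETS core CCGGAAG, on either strand. In Zfp974 the second run of capitals is a kappaB match. Zfp119b (chr17:55945210-55945509, minus strand, the second of its windows) and Zfp959 (chr17:55891843-55892142, plus strand) also rose, hold none of the searched motifs there, and share 96% of their bases. Zfp106 (chr2:120563810-120564109, minus strand) and Zfp503 (chr14:21989552-21989851, minus strand) fell and hold none of them.
Zfp974: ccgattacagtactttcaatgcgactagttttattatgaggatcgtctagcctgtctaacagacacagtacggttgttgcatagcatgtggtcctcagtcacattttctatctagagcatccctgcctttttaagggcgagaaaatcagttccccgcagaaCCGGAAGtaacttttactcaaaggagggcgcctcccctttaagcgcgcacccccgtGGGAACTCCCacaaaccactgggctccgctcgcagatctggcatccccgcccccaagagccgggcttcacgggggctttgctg
Zfp263: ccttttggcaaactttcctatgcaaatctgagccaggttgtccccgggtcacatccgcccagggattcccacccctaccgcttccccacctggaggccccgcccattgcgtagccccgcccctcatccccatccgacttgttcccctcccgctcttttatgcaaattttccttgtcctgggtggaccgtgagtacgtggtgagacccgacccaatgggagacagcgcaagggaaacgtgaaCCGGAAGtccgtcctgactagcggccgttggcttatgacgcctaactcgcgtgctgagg
Zfp408: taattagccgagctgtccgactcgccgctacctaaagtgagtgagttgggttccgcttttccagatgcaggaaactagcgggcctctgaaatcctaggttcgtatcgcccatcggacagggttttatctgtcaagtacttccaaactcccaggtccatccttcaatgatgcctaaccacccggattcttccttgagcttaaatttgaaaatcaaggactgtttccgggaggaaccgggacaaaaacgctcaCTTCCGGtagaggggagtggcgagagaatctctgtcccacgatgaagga
Zfp119b: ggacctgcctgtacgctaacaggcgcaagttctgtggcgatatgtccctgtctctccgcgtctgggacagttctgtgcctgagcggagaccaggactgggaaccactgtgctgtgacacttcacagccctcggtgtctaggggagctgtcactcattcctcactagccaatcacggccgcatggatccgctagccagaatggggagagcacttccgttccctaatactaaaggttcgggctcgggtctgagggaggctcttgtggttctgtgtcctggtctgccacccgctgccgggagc
Zfp959: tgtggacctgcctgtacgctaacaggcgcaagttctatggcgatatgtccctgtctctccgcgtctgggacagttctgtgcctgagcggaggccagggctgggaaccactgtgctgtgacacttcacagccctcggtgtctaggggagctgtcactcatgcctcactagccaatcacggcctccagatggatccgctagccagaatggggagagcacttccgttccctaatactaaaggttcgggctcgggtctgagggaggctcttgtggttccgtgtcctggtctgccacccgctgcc
Zfp106: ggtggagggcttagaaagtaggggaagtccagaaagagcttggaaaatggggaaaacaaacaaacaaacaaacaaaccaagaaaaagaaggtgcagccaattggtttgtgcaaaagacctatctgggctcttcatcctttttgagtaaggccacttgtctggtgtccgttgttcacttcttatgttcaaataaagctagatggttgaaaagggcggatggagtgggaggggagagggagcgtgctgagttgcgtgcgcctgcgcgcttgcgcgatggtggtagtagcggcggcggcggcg
Zfp503: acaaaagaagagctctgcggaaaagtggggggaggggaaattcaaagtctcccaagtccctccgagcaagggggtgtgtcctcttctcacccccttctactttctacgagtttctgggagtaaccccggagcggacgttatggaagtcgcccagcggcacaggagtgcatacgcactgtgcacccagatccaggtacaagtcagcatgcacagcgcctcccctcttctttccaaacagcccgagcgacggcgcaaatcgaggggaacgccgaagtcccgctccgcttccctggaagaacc

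In all, 153 of the 195 mouse members had such a window, 192 windows counting alternative starts. Motifs were searched on both strands. The ETS core CCGGAAG stood in 31.1% of the 45 windows of members called higher and in 13.6% of the 147 windows of the other members, against 8.86% of all 32851 windows in the RefSeq table. It was found in 13 members that rose, and windows of a gene can overlap each other. The E-box CACGTG, the letters that Myc and Max bind, stood in 2.22% of the windows of members called higher, in 5.44% of those of other members and in 7.15% of all windows. The cAMP response element TGACGTCA stood in 2.22%, 4.76% and 1.79% of these sets, the letters TATAAA in 8.89%, 8.84% and 13.6%, and the kappaB motif in 2.22%, 4.76% and 4.51%. Median GC content was 59.7% in windows of members called higher and 58.0% in those of the other members, against 52.7% in all windows. The ratio of observed to expected CpG had medians of 0.706 and 0.721 in these member sets, against 0.384 in all windows. A match of letters is a description of the window and does not show that a factor was bound.

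More numbered zinc finger rows rose than fell with OMX in DLM8, and 135 of the 195 (69.2%) were not called. By edgeR's quasi-likelihood test, with p-values adjusted over all 17109 rows tested, 51 of the 195 members rose and 9 fell (adjusted p under 0.05), which is 26.2% and 4.62% of them. Among all rows tested 19.4% rose and 15.9% fell, and among the 15077 rows that met the same count minimum 20.1% rose and 17.8% fell. The median log2 fold change of the members was 0.55, their quartiles were 0.04 and 1.13, and the median of all rows tested was 0.02. A total of 149 members had a log2 fold change above 0, and 42 of the 51 that rose did so by more than 2-fold, whereas 1 of the 9 that fell did. OMX libraries all lay above untreated libraries in 75 members and all below in 18, against 25.6% and 23.4% of all rows tested, and 24 of those 75 were not called. Within each OMX library the members' median difference from the untreated mean was 0.72, 0.53 and 0.52 on the log2 CPM scale. The count of falls was 5 without untreated replicate 2 and 5 with library size as the only scaling.

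How much of this list was readable without OMX differed between members. In DLM8, 120 members held 20 counts in all 3 untreated columns, and of these 31 rose and 9 fell with a median log2 fold change of 0.30. A further 36 members reached 20 counts in 2 untreated columns, 28 in 1 and 11 in none, and the median of those 11 was 1.96. Members summed to 0.236%, 0.215% and 0.212% of all counts in OMX libraries, against 0.156%, 0.157% and 0.153% in untreated libraries, with no overlap. Their mean log2 CPM had a median of 2.44, below the 3.25 of all rows tested, and their median standard error was 0.38, above the 0.30 of all rows. The plot of log2 fold changes shows the members displaced to the right of all rows in both lines.

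**Figure D1:**
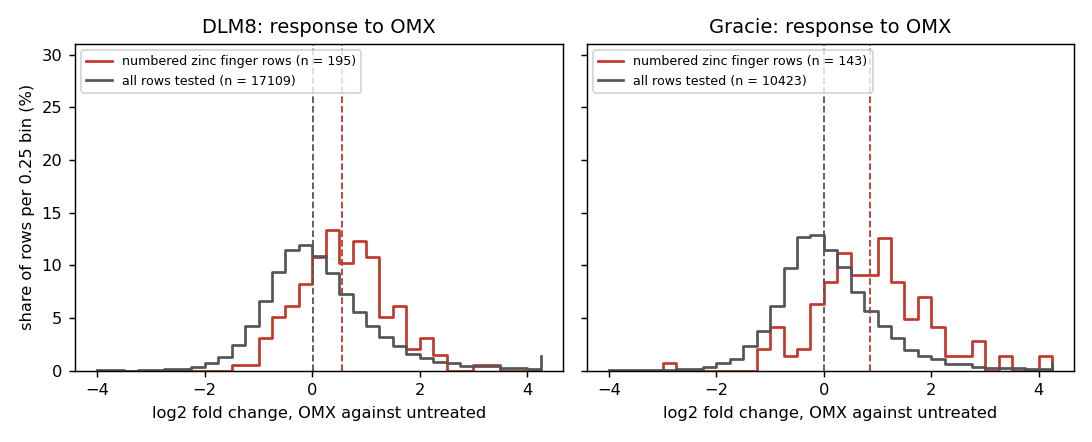
Share of rows in each bin of 0.25 of the log2 fold change (OMX against untreated cells) for numbered zinc finger rows (red) and all rows tested (grey), in DLM8 (left) and Gracie (right); dashed lines are medians, and values beyond 4 in either direction are drawn in the end bins. The medians of the zinc finger rows were 0.55 in DLM8 and 0.87 in Gracie, and those of all rows 0.02 and -0.01.

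The largest rise in DLM8 was that of Zfp119b, a KRAB-containing gene of chromosome 17. It had 14.2, 17.7 and 18.9 CPM (counts relative to library size, scaled by TMM factors) in OMX libraries, against 1.76, 1.21 and 1.63 CPM in untreated libraries. Every OMX library was far above every untreated library, and the log2 fold change was 3.45 ± 0.30 (SE, adjusted p = 4.68e-06). Zfp959, also on chromosome 17, had 2.17, 5.48 and 6.96 CPM in OMX libraries, against 0.464, 1.97 and 0.581 CPM in untreated libraries. OMX replicate 1 was close to untreated replicate 2, the log2 fold change was 2.27 ± 0.63 (SE, adjusted p = 0.0144), and the call was lost without any of 4 libraries, OMX replicates 2 and 3 and untreated replicates 1 and 3 (adjusted p between 0.0509 and 0.0688). The coding sequences of Zfp119b and Zfp959 share 92.4% of their bases and Zfp955b shares 98.2% with Zfp955a, so the authors' counting could have divided reads between these copies, and their separate values are uncertain. Zfp119b, Zfp959 and Zfp955b reached 20 counts in no untreated library and entered the list through their OMX columns. Zfp955b had 5.33, 3.59 and 6.23 CPM in OMX libraries, against 1.67, 0.438 and 0.465 CPM in untreated libraries (log2 fold change 2.50 ± 0.56, SE, adjusted p = 0.00464). Zfp955a, with 3.16, 2.45 and 5.19 CPM in OMX libraries, against 1.67, 3.07 and 2.09 CPM in untreated libraries, was not called (0.66 ± 0.46, SE, adjusted p = 0.294).

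Zfp974, on chromosome 7, had 20.2, 19.9 and 22.8 CPM in OMX libraries, against 5.20, 3.29 and 3.02 CPM in untreated libraries. The groups were far apart, and the log2 fold change was 2.44 ± 0.27 (SE, adjusted p = 3.16e-05). Zfp719 had 7.60, 7.18 and 7.68 CPM in OMX libraries, against 0, 0.219 and 2.32 CPM in untreated libraries. Its untreated libraries held 0, 2 and 20 counts, and the log2 fold change, 3.19 ± 0.80 (SE, adjusted p = 0.00822), was 6.03 without untreated replicate 3 and between 2.55 and 3.21 without any other library, and was not called by DESeq2 (adjusted p = 0.0789). Zfp467, which in mouse marrow stromal cells favours fat over bone cell formation, had 9.78, 9.54 and 12.5 CPM in OMX libraries, against 0.743, 3.29 and 2.90 CPM in untreated libraries (log2 fold change 2.21 ± 0.44, SE, adjusted p = 0.00213). Zfp280d had 6.52, 9.16 and 6.85 CPM in OMX libraries, against 1.67, 0.877 and 2.32 CPM in untreated libraries (2.21 ± 0.41, SE, adjusted p = 0.00146). Zfp51 had 7.21, 15.8 and 11.005 CPM in OMX libraries, against 3.25, 2.30 and 1.98 CPM in untreated libraries (2.16 ± 0.37, SE, adjusted p = 0.000731). In each of these 5 rows the lowest OMX library stood above the highest untreated library.

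A pair of KRAB repressors with known targets, chosen here after their values were seen, were among the members that rose. Zfp809, which in mouse recognises the primer binding site of leukaemia proviruses, had 14.2, 17.5 and 14.7 CPM in OMX libraries, against 6.13, 2.85 and 7.32 CPM in untreated libraries (log2 fold change 1.51 ± 0.32, SE, adjusted p = 0.00316). Zfp568, which in mouse embryos silences a placental transcript of Igf2, had 13.2, 11.7 and 6.64 CPM in OMX libraries, against 1.49, 2.63 and 5.58 CPM in untreated libraries (1.72 ± 0.44, SE, adjusted p = 0.0100). The lowest OMX library of Zfp568 stood only just above the highest untreated library.

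The 9 members that fell in DLM8 were Zfp106, Zfp395, Zfp689, Zfp503, Zfp706, Zfp276, Zfp710, Zfp207 and Zfp335. Zfp106, an RNA-binding protein needed by motor neurons in mouse, had 20.1, 21.5 and 17.4 CPM in OMX libraries, against 40.9, 37.7 and 40.4 CPM in untreated libraries. The groups stood well apart, and this was the only fall past 2-fold (log2 fold change -1.01 ± 0.17, SE, adjusted p = 0.00077). Zfp503, a transcriptional corepressor of striatal development, had 25.5, 25.5 and 24.0 CPM in OMX libraries, against 42.0, 41.2 and 49.0 CPM in untreated libraries (-0.82 ± 0.16, SE, adjusted p = 0.00225). Zfp706, a very short protein that in mouse embryonic stem cells favours exit from self-renewal, had 14.5, 10.95 and 14.3 CPM in OMX libraries, against 26.4, 22.4 and 21.1 CPM in untreated libraries (-0.81 ± 0.21, SE, adjusted p = 0.00952). Zfp395, whose human counterpart responds to hypoxia, had 6.12, 13.8 and 12.5 CPM in OMX libraries, against 23.2, 20.6 and 16.7 CPM in untreated libraries. Its call (-0.90 ± 0.29, SE, adjusted p = 0.0289) was lost without untreated replicate 1 (adjusted p = 0.0860) and without untreated replicate 2 (adjusted p = 0.0763). Zfp689 had 7.21, 7.74 and 9.66 CPM in OMX libraries, against 16.5, 14.9 and 13.1 CPM in untreated libraries (-0.86 ± 0.24, SE, adjusted p = 0.0143, and 0.0538 without OMX replicate 2).

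Of the 4 members with the most counts in DLM8, 2 fell and 2 rose. Zfp335, a subunit of histone methyltransferase complexes that is needed by neural progenitors, had 110.1, 113.7 and 111.6 CPM in OMX libraries, against 135.2, 161.9 and 154.9 CPM in untreated libraries (log2 fold change -0.43 ± 0.13, SE, adjusted p = 0.0195). This call was lost without OMX replicate 2 and without untreated replicates 2 or 3 (adjusted p between 0.0547 and 0.0906). Zfp276 had 37.5, 39.8 and 38.7 CPM in OMX libraries, against 57.9, 68.9 and 71.7 CPM in untreated libraries (-0.77 ± 0.15, SE, adjusted p = 0.00211). Zfp865 had 59.9, 62.5 and 79.4 CPM in OMX libraries, against 32.9, 32.5 and 24.6 CPM in untreated libraries (1.16 ± 0.18, SE, adjusted p = 0.000418). Zfp652, a repressor partner of CBFA2T3, had 85.7, 105.4 and 115.4 CPM in OMX libraries, against 79.3, 64.3 and 66.9 CPM in untreated libraries (0.54 ± 0.16, SE, adjusted p = 0.0180, and between 0.0736 and 0.0967 without OMX replicate 2 or 3 or untreated replicate 2 or 3). In all 4 rows the groups did not overlap.

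Among the members with many counts that were not called, Zfp598 is the ubiquitin ligase that detects collided ribosomes. It had 50.0, 41.3 and 35.3 CPM in OMX libraries, against 26.7, 34.6 and 29.7 CPM in untreated libraries (log2 fold change 0.47 ± 0.19, SE, adjusted p = 0.0657), and the OMX libraries all stood above the untreated ones by a small margin. Zfp598 was called higher with library size as the only scaling (0.62, adjusted p = 0.0237). Zfp469 had 80.4, 38.9 and 36.5 CPM in OMX libraries, against 42.1, 28.2 and 32.1 CPM in untreated libraries (adjusted p = 0.116). Zfp462 had 21.4, 37.7 and 45.5 CPM in OMX libraries, against 15.7, 27.0 and 43.8 CPM in untreated libraries (adjusted p = 0.554), and both groups spanned a wide range. Zfp523 had 31.7, 24.2 and 27.8 CPM in OMX libraries, against 29.9, 28.4 and 20.7 CPM in untreated libraries (adjusted p = 0.779). At the edge of the count minimum, Zfp260 (52 counts summed in OMX, 62 in untreated libraries) and Zfp60 (64 counts in OMX, 36 in untreated libraries) were just inside, and Zfp949 (20, 19 and 20 counts in OMX, 4, 4 and 6 in untreated libraries) and Zfp27 (41, 36 and 18 counts in OMX, 16, 14 and 10 in untreated libraries) were just outside.

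**Figure D2:**
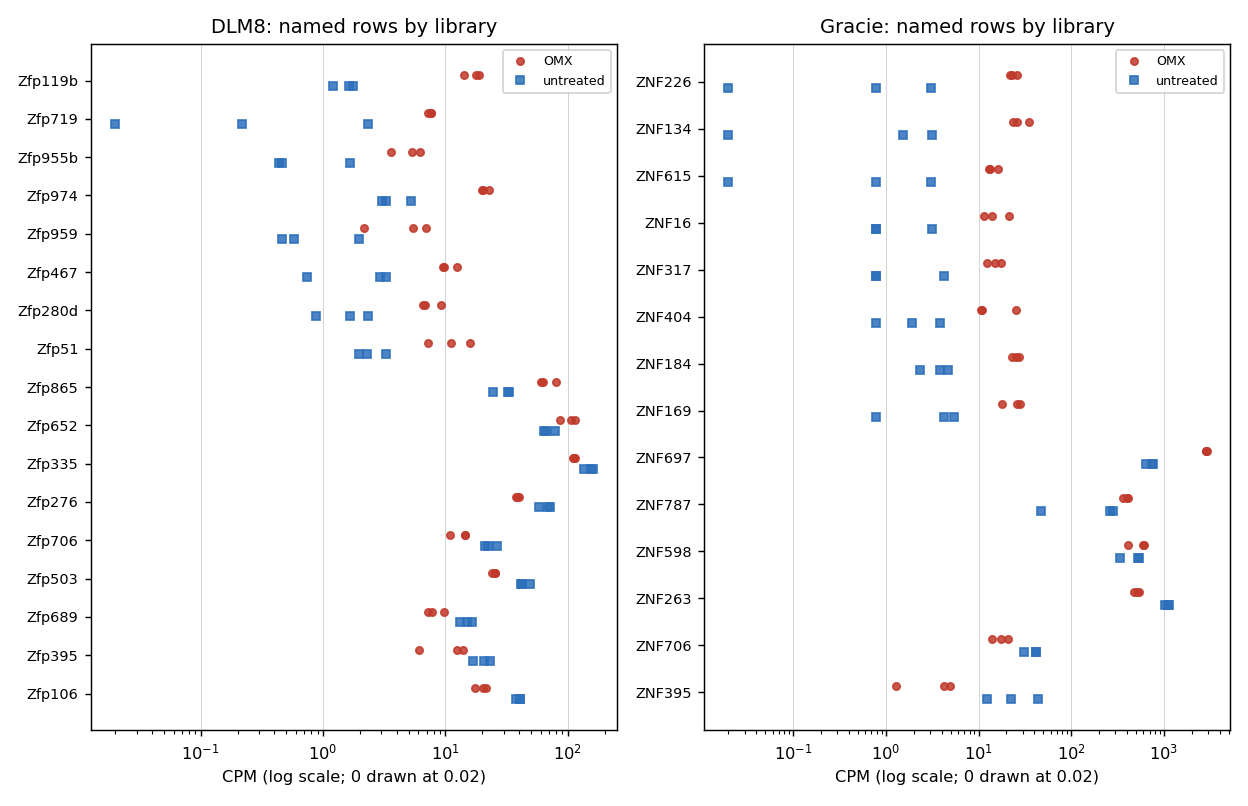
CPM of each library on a log axis for the zinc finger rows with the largest rises, the largest falls and the most counts, in DLM8 (left) and Gracie (right); red circles are OMX libraries, blue squares untreated libraries, rows run from the largest rise at the top to the largest fall at the bottom, and 0 is drawn at 0.02. The groups do not overlap in any row plotted except ZNF598 in Gracie, where OMX replicate 1 at 407 CPM lies among untreated libraries of 337 to 538 CPM.

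Many zinc finger rows of DLM8 lie across an annotated gene on the opposite strand. In the mouse annotation (GENCODE M21) 80 of the 195 members overlapped such a gene and 115 overlapped none. The 115 had 33 rises, 2 falls and a median log2 fold change of 0.68, and the 80 had 18 rises, 7 falls and a median of 0.39. Members that entered the list through their OMX columns, such as Zfp119b and Zfp959, are among the 115. These sets were not split by untreated columns. The facing row held more counts in 47 cases and over 5 times the counts in 24. The whole mouse table held 743 pairs of a coding row and a non-coding row that face each other, and in 595 of them (80.1%) it was the non-coding one that had more counts, at a median ratio of 6.02. Reads of a zinc finger gene and of the gene facing it may be mixed or exchanged between their rows in the mouse counts, which was not tested. The 115 rows that face no gene keep the doubt over strand given above. Dog gene positions were not used here.

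Several of the members named above were of this kind. Zfp652 lies across Abi3, whose row held 12.1 times its counts and had a log2 fold change of -1.70, against 0.54 for Zfp652. Zfp955b faces Zfp422-ps, whose row held 19.0 times its counts and had a log2 fold change of 1.20, and Zfp280d faces BC065403, whose row held 20.4 times its counts and had 0.77. Zfp974 faces Gm26891, whose row held 2.66 times its counts and also rose (1.12). Zfp384, named below, faces 4930557K07Rik, whose row held 3.81 times its counts and also rose (1.31). Zfp865 lies across Zfp784, whose row held fewer counts and was not called (0.37). Zfp276 lies across Fanca (log2 fold change 0.89), Zfp335 across Pcif1 (0.46) and Zfp689 across B130055M24Rik (1.17), and these facing rows rose while the zinc finger rows fell. Of 57 members tested together with their facing row, both rows were called in 12, and in 7 of these the directions were the same. Zfp119b, Zfp719, Zfp959, Zfp467, Zfp51, Zfp106 and Zfp503 face no annotated gene.

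**Figure D3:**
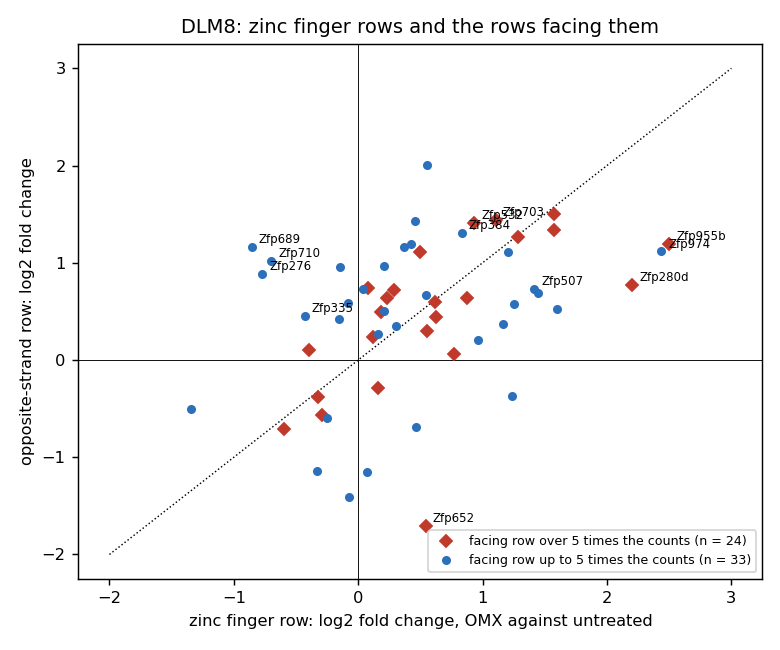
Log2 fold change (OMX against untreated DLM8 cells) of 57 zinc finger rows on the x axis and of the row on the opposite strand on the y axis; red diamonds mark facing rows with over 5 times the counts, the dotted line is equality, and names are given where both rows were called. Zfp652, Zfp276, Zfp335, Zfp689 and Zfp710 lie in the quadrants where the directions differ.

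The proteins of the DLM8 members were sorted by motifs counted in the translated GENCODE coding sequences of 194 members. A finger was counted as 2 cysteines 2 letters apart, 12 letters, and 2 histidines 3 to 5 letters apart. At least 1 was found in 183 members, with a median of 9 and a maximum of 33, and 3.36% of all 21951 coding genes held one. The 49 members with 0 to 4 matches had 7 rises, 6 falls and a median log2 fold change of 0.07. The 145 members with 5 or more had 44 rises, 3 falls and a median of 0.73. Where all 3 untreated columns reached 20 counts these medians were -0.07 (41 members) and 0.47 (78 members). Without this restriction, 38.3% rose at 5 to 9 matches, 25.5% at 10 to 14 and 23.3% at 15 or more. The medians of these classes were 0.72, 0.70 and 0.80. Among all rows that met the count minimum 20.1% rose. Zfp106, Zfp395, Zfp503, Zfp706, Zfp276 and Zfp207, 6 of the 9 that fell, hold 0 to 3 matches, while Zfp335, Zfp689 and Zfp710 hold 10 to 13. Across the 194 members Spearman's rho between the number of matches and the log2 fold change was 0.27, given as a description since these rows share libraries and differ in depth.

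**Figure D4:**
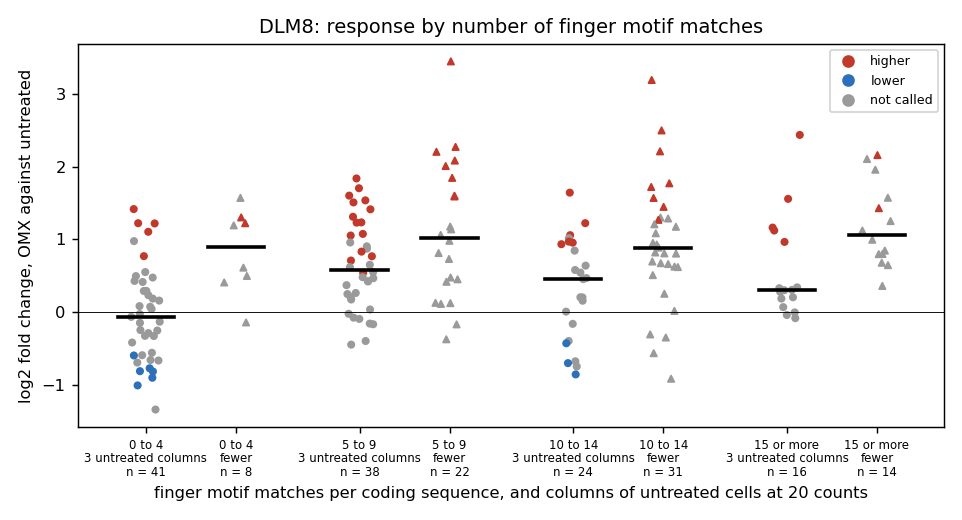
Log2 fold change (OMX against untreated DLM8 cells) of 194 zinc finger rows by the number of finger motif matches; circles are members with 20 counts in all 3 untreated columns, triangles the others, colours give the call, and black bars are medians. With all 3 untreated columns filled, the median was -0.07 for 0 to 4 matches and 0.47 for 5 or more.

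A KRAB motif was found in 73 of the 194, against 1.49% of all coding genes. Those 73 had 21 rises, 1 fall and a median log2 fold change of 0.85, and the 121 without it had 30 rises, 8 falls and a median of 0.42. KRAB members had fewer counts, with a median mean log2 CPM of 1.78, against 2.90 in the others. Among members with 20 counts in all 3 untreated columns the median was 0.295 in the 28 with the motif and 0.291 in the 91 without it. Members by the number of ATTTA pentamers in the untranslated stretch after the stop codon, a motif of unstable messages, had medians of 0.43 with none, 0.62 with 1 to 3 and 0.67 with 4 or more. In the same order 22.4%, 29.5% and 25.4% rose and 4.08%, 3.85% and 5.97% fell. The median length of the stretch was 340, 1189 and 3019 bases. These classes were not split by untreated columns.

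Zinc finger genes that lie side by side were also compared. In 10 runs of 3 or more neighbouring numbered genes with at least 3 members each there were 37 members, 11 of which rose and none fell, with a median log2 fold change of 0.80. The 158 members outside these runs had 40 rises, 9 falls and a median of 0.47. Neither set was split by the untreated columns that reached the count minimum, and the part of that minimum in this difference was not tested. On chromosome 17, Zfp51, Zfp53, Zfp52 and Zfp948 had a median of 1.54 with 2 rises. On chromosome 6 the run of Zfp786, Zfp398, Zfp282, Zfp212, Zfp956, Zfp777 and Zfp746 had 3 rises and a median of 0.48, with Zfp398 at 2.01 and Zfp786 at 0.25. By chromosome, 45 members lay on chromosome 7 (11 rises, 2 falls) and 20 on chromosome 17 (5 rises, no fall). Among all 195 members 26.2% rose and 4.62% fell. Genes of a run can be copies of each other, which was not measured across the runs, and are not taken as separate observations.

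In the dog line Gracie, too, more numbered zinc finger rows rose than fell with OMX, and 86 of the 143 (60.1%) were not called. By edgeR's quasi-likelihood test, with p-values adjusted over 10423 rows, 54 of 143 members rose and 3 fell, which is 37.8% and 2.10% of them. Among all rows tested 12.5% rose and 8.06% fell, and among the 9208 rows that met the count minimum 13.4% rose and 8.94% fell. The median log2 fold change of the members was 0.87 with quartiles of 0.26 and 1.48, 119 members were above 0, and 49 of the 54 rises passed 2-fold. The rises numbered 33 without OMX replicate 2, and the falls 5 without untreated replicate 1 and 8 with library size as the only scaling. OMX libraries all lay above untreated libraries in 75 members and all below in 9, against 21.5% and 18.2% of all rows tested. Members with 20 counts in all 3 untreated columns (85) had 30 rises, 3 falls and a median of 0.57, and the 22 with no such untreated column had 15 rises and a median of 2.18. The members' share of all counts was 0.771%, 0.864% and 0.890% in OMX libraries, against 0.531%, 0.551% and 0.569% in untreated libraries.

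Much of that share was ZNF697, which is listed in 2 rows. Without them the share was 0.508%, 0.580% and 0.597% in OMX libraries, against 0.447%, 0.472% and 0.501% in untreated libraries, still with no overlap. The row with more counts had 2871, 2829 and 2883 CPM in OMX libraries, against 757.9, 741.7 and 637.9 CPM in untreated libraries, and the groups were far apart (log2 fold change 2.01 ± 0.17, SE, adjusted p = 4.69e-06). The other had 92.0, 81.7 and 91.2 CPM in OMX libraries, against 24.8, 31.9 and 20.9 CPM in untreated libraries (1.77 ± 0.24, SE, adjusted p = 0.00024). ZNF263, a DNA-binding protein with a long row of fingers, was the highest-count member that fell. It had 473.8, 514.7 and 536.6 CPM in OMX libraries, against 1031, 1097 and 1145 CPM in untreated libraries (-1.10 ± 0.17, SE, adjusted p = 0.000554). ZNF598 had 407.3, 592.2 and 605.0 CPM in OMX libraries, against 336.5, 538.0 and 530.7 CPM in untreated libraries (0.19 ± 0.23, SE, adjusted p = 0.589), and its groups overlapped. ZNF787 had 402.8, 411.2 and 364.6 CPM in OMX libraries, against 46.9, 260.1 and 279.5 CPM in untreated libraries. Untreated replicate 1 stood far below the other two, and ZNF787 was not called (1.01 ± 0.43, SE, adjusted p = 0.115). ZNF787 was called higher without the filter, with a replicate block and in 1 fit that left out a library (adjusted p = 0.0352).

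The largest rises in Gracie began from almost no counts. ZNF226 had 23.0, 21.8 and 26.1 CPM in OMX libraries, against 3.098, 0 and 0.774 CPM in untreated libraries (log2 fold change 4.14 ± 0.68, SE, adjusted p = 0.000804), from 208 counts summed in OMX and 10 in untreated libraries. ZNF134 had 34.9, 26.0 and 23.8 CPM in OMX libraries, against 0, 3.11 and 1.55 CPM in untreated libraries (4.14 ± 0.63, SE, adjusted p = 0.000475). ZNF184 had 27.1, 22.7 and 25.4 CPM in OMX libraries, against 3.87, 4.67 and 2.32 CPM in untreated libraries (2.77 ± 0.43, SE, adjusted p = 0.000519). ZNF169 had 18.1, 26.3 and 27.7 CPM in OMX libraries, against 4.26, 5.45 and 0.774 CPM in untreated libraries (2.77 ± 0.54, SE, adjusted p = 0.00259). ZNF615, ZNF16, ZNF317 and ZNF404 rose by log2 fold changes of 3.42, 3.30, 2.93 and 2.80, each with 10 to 17 counts summed over the untreated libraries. ZNF404 lost its call without OMX replicate 1 (adjusted p = 0.0748). In all 8 rows the groups did not overlap, and none reached 20 counts in an untreated library, so they entered the list through their OMX columns.

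The other falls in Gracie were those of ZNF395 and ZNF706, the same numbers as in DLM8. ZNF395 had 4.93, 4.24 and 1.30 CPM in OMX libraries, against 44.1, 22.6 and 12.4 CPM in untreated libraries (log2 fold change -2.92 ± 0.57, SE, adjusted p = 0.00279), and its untreated libraries spread widely. ZNF706 had 13.96, 20.6 and 17.6 CPM in OMX libraries, against 41.8, 30.8 and 41.4 CPM in untreated libraries (-1.12 ± 0.30, SE, adjusted p = 0.0168), a call lost without OMX replicate 1 (adjusted p = 0.0587) and without OMX replicate 3 (adjusted p = 0.0501). Among members with many counts that were not called, ZNF189 had 259.9, 267.8 and 240.8 CPM in OMX libraries, against 195.2, 209.1 and 249.3 CPM in untreated libraries (adjusted p = 0.407). ZNF276 had 111.3, 95.9 and 149.9 CPM in OMX libraries, against 169.2, 174.8 and 204.0 CPM in untreated libraries (-0.62 ± 0.22, SE, adjusted p = 0.0582), with no overlap. ZNF276 was called lower by DESeq2 (adjusted p = 0.0443), with upper-quartile scaling, with library size alone and without the filter (adjusted p between 0.0278 and 0.0458) and without OMX replicate 3 or untreated replicate 1 (0.0305 and 0.0359). ZNF142 (log2 fold change 0.52, adjusted p = 0.101) and ZNF512B (0.27, adjusted p = 0.471) were not called either. Just inside the count minimum stood ZNF428 (70 counts summed in OMX, 50 in untreated libraries) and ZNF445 (62 counts in OMX, 30 in untreated libraries). Just outside stood ZNF397 (26, 44 and 19 counts in OMX, 2, 2 and 4 in untreated libraries) and ZNF518B (19, 22 and 18 counts in OMX, 14, 18 and 20 in untreated libraries).

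The lines were compared through 96 pairs of a mouse and a dog row that carry the same number, 92 of them with a number of 100 or more. A shared number does not prove that 2 genes are orthologs. Of the 96 pairs, 10 rose in both lines and 2 fell in both, 13 rose in DLM8 and were not called in Gracie, 22 rose in Gracie and were not called in DLM8, 5 fell in DLM8 and were not called in Gracie, and 42 were called in neither. In percent of the pairs these were 10.4, 2.08, 13.5, 22.9, 5.21 and 43.8. Among the 7559 other genes tested in both lines the percentages were, in the same order, 4.07, 3.73, 8.76, 6.65, 13.5 and 58.2. The remaining pairs were called in opposite directions and are given below. The sign was the same in 65 pairs (67.7%), against 65.2% of those other genes, and the Pearson correlation of the log2 fold changes was 0.26 across the pairs and 0.40 across the other genes. The lines share no library, but genes are not independent replicates and these are descriptions.

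The pairs that rose in both lines were those numbered 592, 408, 507, 622, 865, 628, 217, 316, 516 and 384. Zfp592 and ZNF592, members of a chromatin complex with ZMYND8, rose by 1.54 ± 0.24 in DLM8 and 2.02 ± 0.28 in Gracie (log2, SE). Zfp592 had 26.1, 21.5 and 23.9 CPM in OMX libraries, against 7.80, 10.5 and 6.27 CPM in untreated libraries, and ZNF592 had 93.6, 80.5 and 79.2 CPM in OMX libraries, against 29.4, 16.4 and 16.6 CPM in untreated libraries. The pair numbered 622, an assembly factor of the large ribosomal subunit, rose by 1.22 ± 0.28 in DLM8 and 1.26 ± 0.25 in Gracie. The pair numbered 217, a breast cancer oncogene in human, rose by 1.05 ± 0.29 in DLM8 and 1.03 ± 0.33 in Gracie. The pair numbered 384, known in mouse osteoblasts as Nmp4, a factor that restrains bone formation, rose by 0.83 ± 0.21 in DLM8 and 1.37 ± 0.24 in Gracie and was named after its values were seen. The largest standard error among these 10 pairs was that of the pair numbered 408 in DLM8 (1.77 ± 0.51) and that of the pair numbered 865 in Gracie (1.34 ± 0.44).

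The difference between the lines was tested as the interaction of line and OMX in one fit over 7675 genes, in which 12.1% of all genes were called (edgeR's quasi-likelihood test, adjusted p under 0.05). Of the 96 pairs 15 were called (15.6%). Zfp263 rose in DLM8, with 22.9, 14.9 and 11.8 CPM in OMX libraries, against 7.43, 3.95 and 2.32 CPM in untreated libraries (log2 fold change 1.84 ± 0.39, SE), while ZNF263 fell in Gracie. The response of DLM8 minus that of Gracie was 2.93 ± 0.40 (log2, SE, adjusted p = 0.000111). Zfp335 fell in DLM8, as given above, while ZNF335 rose in Gracie, with 141.2, 78.7 and 88.3 CPM in OMX libraries, against 45.7, 64.6 and 57.3 CPM in untreated libraries (0.88 ± 0.26, SE). DLM8 minus Gracie was -1.31 ± 0.31 (SE, adjusted p = 0.00873). Zfp143 had 1.38, 4.25 and 4.57 CPM in DLM8 OMX libraries, against 3.81, 4.38 and 4.65 CPM in untreated libraries. ZNF143, in human an activator of small nuclear RNA genes, had 47.2, 46.0 and 58.3 CPM in Gracie OMX libraries, against 3.098, 10.9 and 13.9 CPM in untreated libraries, and DLM8 minus Gracie was -2.77 ± 0.61 (SE, adjusted p = 0.00522).

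The pairs numbered 646, 532 and 148 followed. Zfp646 averaged 18.8 ± 2.56 CPM in DLM8 OMX libraries and 16.3 ± 2.79 CPM in untreated libraries, and ZNF646 averaged 106.1 ± 17.1 CPM in Gracie OMX libraries and 29.2 ± 14.3 CPM in untreated libraries (SD, n = 3 each). The difference of the responses was -1.66 ± 0.39 (SE, adjusted p = 0.00818). Zfp532, another partner of ZMYND8, averaged 35.6 ± 10.1 CPM in DLM8 OMX libraries and 18.7 ± 2.70 CPM in untreated libraries, and ZNF532 averaged 7.35 ± 0.792 CPM in Gracie OMX libraries and 13.2 ± 2.76 CPM in untreated libraries (SD, n = 3 each). The difference was 1.78 ± 0.42 (SE, adjusted p = 0.00840), and Zfp532 faces Gm50115, whose row held 9.30 times its counts. For the pair numbered 148 the difference was -1.41 ± 0.34 (SE, adjusted p = 0.00919), with Zfp148 at -0.67 and ZNF148 at 0.74. Levels are not set against each other across the lines, since the tables come from 2 species and differ in depth.

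**Figure D5:**
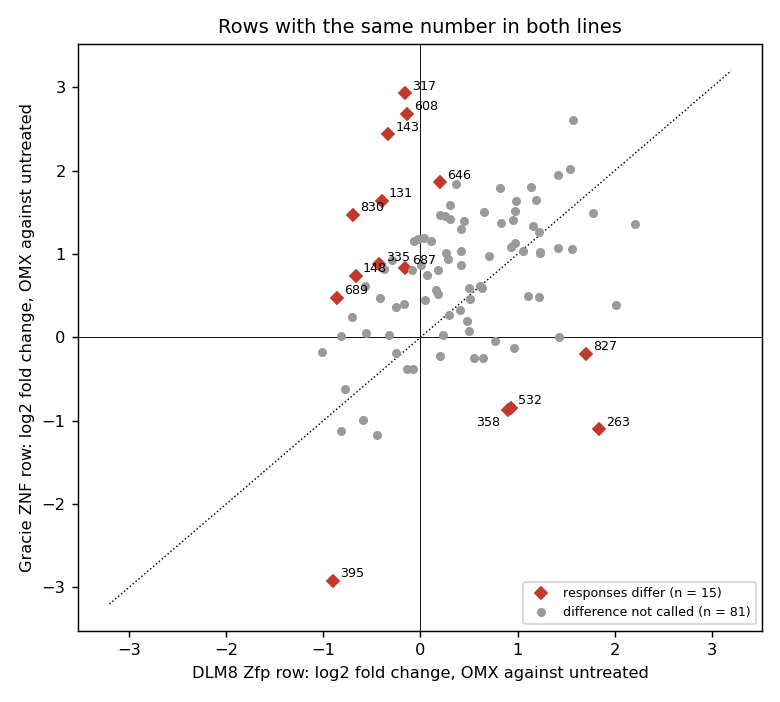
Log2 fold change (OMX against untreated cells) of the Zfp row in DLM8 (x axis) and of the ZNF row with the same number in Gracie (y axis) for 96 pairs; red diamonds with numbers are the 15 pairs whose responses differed between the lines, grey circles the others, and the dotted line is equality. Pair 263 lies at 1.84 in DLM8 and -1.10 in Gracie, and pair 395 at -0.90 and -2.92.

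The partners through which KRAB proteins act, and the neighbouring zinc finger families, were read from the same fits. Of 22 tested genes of the KRAB corepressor list in DLM8, 7 rose and 5 fell with a median log2 fold change of -0.06, where 19.4% of all rows tested rose and 15.9% fell. Of 20 in Gracie, 4 rose and 2 fell with a median of 0.10, where 12.5% of all rows tested rose and 8.06% fell. These shares of all rows apply to the counts of the families below as well. In DLM8 Resf1, a partner of SETDB1, rose by 3.52 ± 0.21 (SE), Mphosph8, of the HUSH silencing complex, by 1.58 ± 0.23, and Cbx5, a heterochromatin protein, fell by 1.00 on the log2 scale (SE 0.18). The central members moved in opposite directions, with Trim28 at -0.58 ± 0.18 (adjusted p = 0.0229) and Setdb1 at 0.55 ± 0.17 (adjusted p = 0.0261), both named after their values were seen. In Gracie UHRF1, which guides DNA methylation, fell by 1.74 on the log2 scale (SE 0.28), while ATF7IP, a stabiliser of SETDB1, rose by 1.40 ± 0.35 and MPHOSPH8 by 1.24 ± 0.32.

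The ZBTB family, whose proteins join fingers to a BTB domain, had 10 rises and 3 falls among 36 tested genes in DLM8 (median log2 fold change 0.17) and 11 rises and 2 falls among 31 in Gracie (median 0.61). Zbtb22 (2.54 ± 0.26, SE), Zbtb32 (1.62 ± 0.26) and Zbtb21 (1.65 ± 0.28) had the smallest p-values in DLM8. ZBTB7A (2.30 ± 0.25), ZBTB32 (-2.53 ± 0.35) and ZBTB2 (1.56 ± 0.24) had the smallest in Gracie. The SCAN domain families had 3 rises among 7 tested ZSCAN genes and 2 among 5 ZKSCAN genes in DLM8, and 2 among 9 and 1 among 3 in Gracie, with no fall (medians 0.73 and 0.67 in DLM8, 0.75 and 1.26 in Gracie). The leading rows were Zscan25 (1.70), Zscan21 (1.49), Zscan26 (0.85), Zkscan5 (2.03) and Zkscan3 (1.15) in DLM8 and ZSCAN20 (2.58), ZSCAN25 (2.80) and ZKSCAN1 (3.13) in Gracie. Of the CCCH-type family ZC3H, 3 of 18 rose in DLM8 (median 0.45) and 3 of 13 in Gracie (median 0.55), with none falling, and in DLM8 that share of rises was below the 19.4% of all rows. They included Zc3h12a (2.12 ± 0.28, SE) in DLM8 and ZC3H12A (2.55 ± 0.40) in Gracie, the RNase Regnase that degrades inflammatory messages.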

How the data were processed

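RNA was measured in 12 libraries of 2 lines, with poly(A) selection per the labels' protocols. The authors deposited raw counts per gene, whole numbers in 1 table a line, and the submitters' processing notes name STAR, featureCounts of Subread, mm39 or GRCm39 and CanFam3.1. The sources used here give no versions, annotation or strand setting. Every one of the 6 columns of each table was matched to a sample by its name, and 0 columns were left over.

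From these counts, each line was fitted on its whole table with edgeR 4.0.16 (R 4.3.3): TMM factors, filterByExpr, quasi-likelihood F-test, Benjamini-Hochberg over all rows tested, called at an adjusted p under 0.05. Fitted log2 fold changes are OMX over untreated, standard errors are the log2 fold change over the square root of F, and CPM values use the TMM-scaled library sizes. Lines were compared by an interaction term over genes with the same symbol or number. The procedure was tested on simulated data. DESeq2 1.42.0, other scalings, filters and thresholds, halved counts, leaving out each library and a replicate block were alternatives.

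Members and lists were chosen with earlier results of these data known. Genes were named by a rule: per line the 8 largest called rises and 6 largest falls whose groups did not overlap and whose average log2 CPM was 1 or more, the 4 members with the most counts, the next 4 not called, 2 rows on each side of the count minimum, the 6 pairs with the smallest interaction p and up to 10 pairs called in both lines, the 3 smallest p-values of each related list, and the facing gene of a named member where it held over 5 times its counts. Mouse features came from GENCODE M21 and RefSeq GRCm38.p6, matched by gene ID or symbol, and no coordinates of the count table are printed since its build differs. Precision is limited by the counts behind a row, and rows of a near-identical copy or of an opposite-strand gene can share reads.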

Additional observations from a re-analysis of the deposited data

Results flagged for a closer look

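For 15 of the 96 same-number pairs the response to OMX differed between the lines by the interaction test of edgeR (adjusted over 7675 genes), given here as the DLM8 log2 fold change minus that of Gracie. The response was more positive in DLM8 for Zfp263 and ZNF263 (2.93), Zfp395 and ZNF395 (2.03, with falls in both lines), Zfp827 and ZNF827 (1.90), Zfp532 and ZNF532 (1.78) and Zfp358 and ZNF358 (1.77). It was more positive in Gracie for Zfp317 and ZNF317 (-3.10), Zfp608 and ZNF608 (-2.83), Zfp143 and ZNF143 (-2.77), Zfp830 and ZNF830 (-2.17), Zfp131 and ZNF131 (-2.04), Zfp646 and ZNF646 (-1.66), Zfp148 and ZNF148 (-1.41), Zfp689 and ZNF689 (-1.33), Zfp335 and ZNF335 (-1.31) and Zfp687 and ZNF687 (-0.996). ZNF317 and ZNF131 reached 20 counts in no untreated Gracie library, and ZNF608 and ZNF830 in only 1. Their place in the list thus rested wholly or mostly on OMX columns, where they were high.

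The calls for 263, 143, 646, 532, 335, 148, 608, 689, 317 and 131 held when any 1 of the 12 libraries was left out, which does not change how the rows were chosen. The call for Zfp358 and ZNF358 was lost without DLM8 OMX replicate 2, DLM8 untreated replicate 2 or Gracie untreated replicate 3 (adjusted p between 0.0502 and 0.0596). That for 687 was lost without DLM8 OMX replicate 2, DLM8 untreated replicate 2 or 3 or Gracie OMX replicate 2 (0.0510 to 0.0664). That for 827 was lost without DLM8 OMX replicate 1 or 2, DLM8 untreated replicate 1 or 3, Gracie OMX replicate 3 or Gracie untreated replicate 2 (0.0507 to 0.0821). For 830 the call was lost in 9 of the 12 fits (0.0533 to 0.0886) and held without DLM8 OMX replicate 3, Gracie OMX replicate 3 or Gracie untreated replicate 2. For 395 it was also lost in 9 (0.0574 to 0.131) and held without DLM8 OMX replicate 1, Gracie OMX replicate 1 or Gracie untreated replicate 3. Zfp687 averaged 14.6 ± 1.31 CPM in DLM8 OMX and 16.3 ± 1.10 CPM in untreated libraries, and ZNF687, in human a gene of Paget disease of bone, averaged 90.4 ± 2.68 CPM in Gracie OMX and 50.6 ± 5.97 CPM in untreated libraries (SD, n = 3 each). Zfp608 averaged 4.78 ± 2.43 CPM in DLM8 OMX and 5.32 ± 3.39 CPM in untreated libraries, and ZNF608 averaged 50.1 ± 11.8 CPM in Gracie OMX and 7.75 ± 2.78 CPM in untreated libraries (SD, n = 3 each). Whether opposite-strand reads, species or depth have a part in these differences was not tested.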

How the results depend on the processing

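Leaving out each library in turn gave 39 to 48 rises, 5 to 9 falls and a median log2 fold change of 0.49 to 0.62 in DLM8, 33 to 55 rises, 2 to 5 falls and a median of 0.76 to 0.92 in Gracie, and 10 to 17 pairs that differed between the lines. With library size as the only scaling the median of all rows moved by 0.14 in DLM8 and by -0.13 in Gracie, and the members had 5 falls and a median of 0.69 in DLM8 and 8 falls and a median of 0.74 in Gracie. Without a filter on low counts Gracie had 5 falls. The 115 DLM8 members that face no annotated gene, not split by untreated columns, had 33 rises, 2 falls and a median of 0.68. Members with 20 counts in all 3 untreated columns, an alternative chosen after seeing the data, had 31 rises and a median of 0.30 in DLM8 and 30 rises and a median of 0.57 in Gracie. Under DESeq2, RLE and upper-quartile scaling, halved counts and count minimums of 10 or 50, the counts of rises and falls stayed within 1.5 times.

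Replicate numbers are shared between groups, but the same-numbered libraries did not deviate together throughout (correlations 0.203, 0.0374 and 0.114 in DLM8 and 0.129, -0.0197 and 0.182 in Gracie). Libraries of unlike number had correlations between -0.164 and 0.0621 in DLM8 and between -0.173 and 0.0316 in Gracie. With a replicate block there were 57 rises and 11 falls in DLM8, 57 rises and 6 falls in Gracie, and 18 pairs, and of the named genes Zfp598 (adjusted p = 0.0476), Zfp469 (0.0232), ZNF276 (0.0248) and ZNF787 (0.0457) gained a call.

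Of 557 values of named genes under alternatives, 516 kept direction and call, 20 lost the call, 14 gained one and 7 changed sign, all among genes that were not called. These were, without 1 library, Zfp462 (-0.0371 to 0.696), Zfp523 (-0.0775 to 0.170, with -0.0374), Zfp260 (-0.723 to 0.0473), ZNF598 (-0.000757 to 0.346) and ZNF428 (-0.214 to 0.823, with -0.119). The cause was not tested. Rows near 20 counts rest on few reads.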
